A study of Rattus norvegicus with 71 samples.

Results

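The genes described here are 38 genes of the unfolded protein response and the integrated stress response, chosen by symbol from the 19771 genes of a rat RNA-seq count table. They form an amino acid branch of 22 genes tied to the transcription factor ATF4, and a chaperone branch of 16 genes tied to ATF6 and XBP1. The filter on low counts kept 37 of the 38 genes, 21 and 16 by branch. Nupr1, a small stress-induced chromatin protein, had 39 counts over all libraries and was not tested. RNA came from rat primary cortical cells that were plated at 150000 per well on microelectrode arrays and dosed from 2 h after plating and again with medium renewals on days in vitro 5, 7 and 9, with RNA taken on day in vitro 12. The groups were haloperidol (a dopamine receptor antagonist) at 0.3, 1 and 3 µM, domoic acid (a kainate receptor agonist) at 0.1, 0.3 and 1 µM, deltamethrin (a pyrethroid that holds sodium channels open) at 0.3, 1, 3 and 10 µM, cypermethrin (another pyrethroid) at 1, 3 and 10 µM, cytosine arabinoside (a nucleoside analog that blocks DNA synthesis) at 0.1, 0.3 and 1 µM, and 5-fluorouracil (a pyrimidine analog that inhibits thymidylate synthase) at 0.1, 0.3 and 1 µM. Each compound had its own 0 µM wells, which the labels call vehicle. The 71 libraries made 25 groups, of which 22 held 3 libraries, the 0 µM groups of cypermethrin and 5-fluorouracil held 2 and deltamethrin at 0.3 µM held 1.

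When unfolded proteins gather in the endoplasmic reticulum, the sensors ATF6 and IRE1 (gene Ern1) act through cleaved ATF6 and spliced XBP1 to raise chaperones, folding enzymes and the machinery that retrieves misfolded proteins for degradation. Another arm, shared with responses to amino acid shortage and other stresses, phosphorylates the initiation factor eIF2, which slows translation in general and favours translation of ATF4. ATF4 then raises genes of amino acid synthesis and uptake, and with lasting stress the factor CHOP (gene Ddit3). Much of both arms is set by translation, cleavage and splicing, which counts of gene reads do not show. In rodent brain the serine synthesis enzyme Phgdh and the cystine carrier Slc7a11 are best known from astrocytes.

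RNA of 2 to 3 wells was pooled for a sample, and 2 separate cultures were used without the labels naming the culture of a library, so a p-value here speaks of the spread among pooled wells. Titles carry the codes GRC321 (24 libraries) and GRC327 (47), called projects here, and the labels do not say whether a code marks a culture or a sequencing run. Every group of 3 held 1 GRC321 library and 2 GRC327 libraries. Libraries held 5.2 M to 43.1 M counts each (median 10.2 M). Levels are CPM, counts relative to the TMM-scaled library total, and library values are printed with GRC321 first and then GRC327. Over the 16 libraries at 0 µM the median coefficient of variation was 25% in the amino acid branch and 20.7% in the chaperone branch. For 11 genes the GRC321 and GRC327 levels at 0 µM did not overlap, among them Atf4 with medians of 408 and 240.2 CPM, so each compound carried a project term in the test. The labels call the samples cortical neurons, and 18 pan-neuronal markers summed to at least 10477 CPM in every library, while the 8 microglial markers in the table summed to at most 1.41 CPM. In bulk RNA fewer cells of a type and less RNA per cell cannot be told apart.

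Members were called with the antimetabolites only. Values after ± are standard errors of log2 changes, each set against the compound's own 0 µM libraries. The errors were derived from the F statistic of the test. With cytosine arabinoside, edgeR's quasi-likelihood test (Benjamini-Hochberg adjusted p under 0.05) called 7 of the 37 members at 0.1 µM, 12 at 0.3 µM and 25 at 1 µM, against 9.13%, 17.6% and 36% of all 15343 genes tested. The count at 0.1 µM was 4 without 0.1 µM replicate 2, where Psat1, Slc3a2 and Slc7a5 were no longer called. With a replicate block by title run, which pairs libraries whose titles fall in the same stretch of consecutive numbers, Trib3 was called as well at 0.1 µM and Chac1 at 0.3 µM, and no call was lost. With 5-fluorouracil it called 3 at 1 µM, against 4.03% of all genes, and none at 0.1 or 0.3 µM. None was called with haloperidol, domoic acid, deltamethrin or cypermethrin at any concentration.

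**Figure D1:**
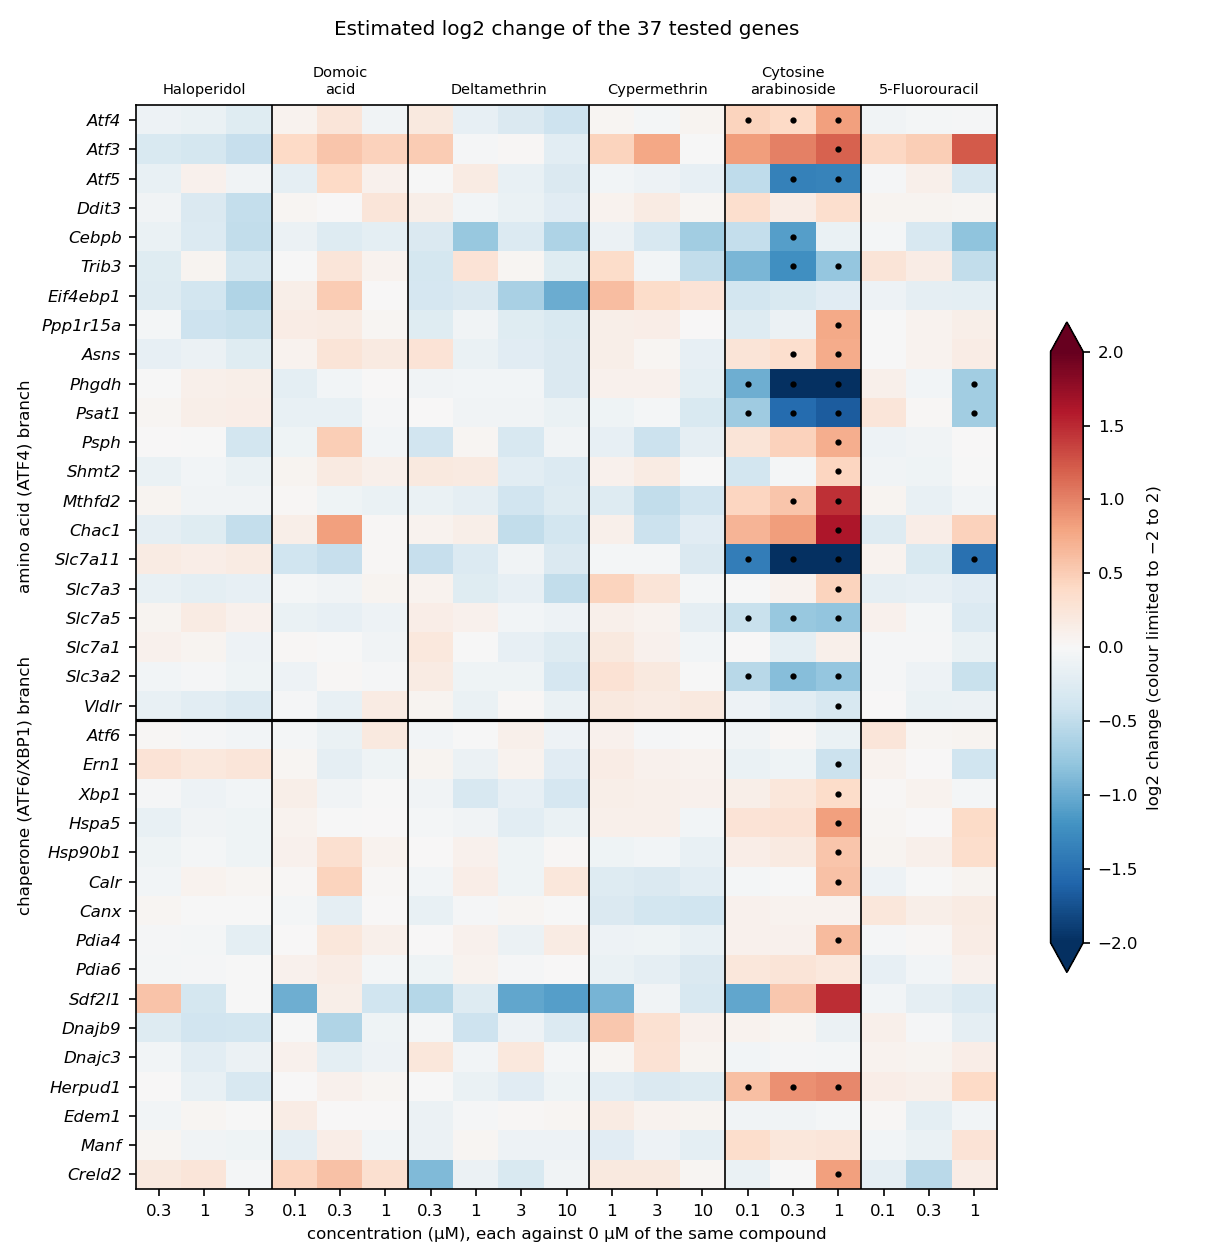
Estimated log2 change of the 37 tested genes (rows, amino acid branch above the line, chaperone branch below it) at each concentration against 0 µM of the same compound (columns, concentration in µM), with dots on called genes and colour limited to −2 to 2. Dots stand in the cytosine arabinoside columns and at 1 µM 5-fluorouracil, and within the amino acid branch of cytosine arabinoside dark blue and red rows lie side by side.

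Under cytosine arabinoside the amino acid branch did not move as a block. At 0.1 µM 1 of its 21 tested genes rose and 5 fell, at 0.3 µM 3 rose and 8 fell, and at 1 µM 9 rose and 8 fell. Among all genes tested, 2.38% rose and 6.75% fell at 0.1 µM, 5.96% and 11.7% at 0.3 µM, and 16.6% and 19.4% at 1 µM. The branch median was −0.25, −0.19 and 0.10 on the log2 scale over the 3 concentrations, against 0.01, 0.02 and 0.03 for all genes. The same 0 µM libraries served all 3 concentrations.

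The serine synthesis enzymes split. Phgdh, which makes the first committed step from glycolysis to serine, stood at 84.4, 108 and 133 CPM at 0 µM, 46.7, 60.8 and 57.2 CPM at 0.1 µM, 15.1, 21.8 and 18.6 CPM at 0.3 µM and 3.77, 11.5 and 7.87 CPM at 1 µM. No 2 of these 4 groups overlapped. The log2 changes were −0.97 ± 0.16 (adjusted p = 1.03e-05), −2.55 ± 0.17 (adjusted p = 7.31e-17) and −3.80 ± 0.18 (adjusted p = 3.91e-23). Psat1, the aminotransferase of the next step, stood at 213, 182 and 323 CPM at 0 µM, 154, 129 and 156 CPM at 0.1 µM, 82.8, 84.7 and 79.5 CPM at 0.3 µM and 82.01, 62.02 and 83.4 CPM at 1 µM. All treated libraries were below the 0 µM libraries, and the 0.3 and 1 µM groups overlapped, with log2 changes of −0.71, −1.54 and −1.66 ± 0.19 (adjusted p = 1.92e-10 at 1 µM). Psph, the phosphatase of the last step, went the other way at 1 µM, with 24.3, 12.8 and 14.7 CPM against 9.54, 10.5 and 9.81 CPM at 0 µM. The groups did not overlap, and the change was 0.72 ± 0.19 (adjusted p = 0.00153). Within GRC327 alone the Psph change was 0.44 and the call ended (adjusted p = 0.123).

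Asns, Mthfd2 and Shmt2 rose at 1 µM while Phgdh and Psat1 fell. Asns, asparagine synthetase and a standard readout of ATF4, stood at 156, 104 and 108 CPM at 0 µM, 217, 118 and 118 CPM at 0.1 µM, 189, 142 and 129 CPM at 0.3 µM and 275, 156 and 187 CPM at 1 µM. Within each project the 1 µM libraries were the highest of the 4 groups, and the change was 0.33 ± 0.11 at 0.3 µM (adjusted p = 0.0285) and 0.74 ± 0.11 at 1 µM (adjusted p = 2.56e-07). The Asns call at 0.3 µM ended in 7 of 17 alternatives to the test, among them those without 0 µM replicate 1, 0 µM replicate 2, 0.3 µM replicate 2 or 0.3 µM replicate 3. Mthfd2, a mitochondrial folate dehydrogenase, had 55.1, 16.95 and 20.2 CPM at 1 µM against 10.4, 9.26 and 9.66 CPM at 0 µM. The GRC321 library stood far above the GRC327 pair, the groups did not overlap, and the change was 1.47 ± 0.20 (adjusted p = 2.25e-08). That library also had the highest mitochondrial share of counts among the cytosine arabinoside libraries, 9.12%, against 2.96% to 4.61% at 0 µM, and its part in the value was not tested. Mthfd2 was called at 1 µM in all 17 alternatives, that without this library included, with adjusted p values up to 0.00103. Shmt2, the serine hydroxymethyltransferase that feeds the same pathway, rose by 0.42 ± 0.17 (adjusted p = 0.0412), a call that ended in 7 of the 17 alternatives.

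The transporters of the branch split as well. Slc7a11, the light chain of the cystine and glutamate exchanger, had the steepest fall of the members at 1 µM. It stood at 888, 813 and 1700.0 CPM at 0 µM, 402, 438 and 461 CPM at 0.1 µM, 112, 51.9 and 73.5 CPM at 0.3 µM and 41.7, 30.2 and 48.2 CPM at 1 µM. The 4 groups did not overlap, and the changes were −1.39 ± 0.28 (adjusted p = 0.000303), −3.85 ± 0.31 (adjusted p = 2.48e-14) and −4.83 ± 0.32 (adjusted p = 8.28e-18). Slc3a2, the heavy chain that partners both Slc7a11 and Slc7a5, had 163, 139 and 145 CPM at 1 µM against 343, 191 and 249.9 CPM at 0 µM, again without overlap, a log2 change of −0.77 ± 0.16 (adjusted p = 6.58e-05). Slc7a5, the carrier of large neutral amino acids, stood at 413, 433 and 479 CPM at 0 µM, 351, 303 and 319 CPM at 0.1 µM, 234, 263 and 289 CPM at 0.3 µM and 202, 269 and 297 CPM at 1 µM. Every treated library lay below the 0 µM libraries, with a log2 change of −0.79 ± 0.11 at 1 µM (adjusted p = 2.73e-08). The cationic amino acid carriers differed: Slc7a3 rose by 0.44 ± 0.17 (adjusted p = 0.0376), although its GRC321 library was lower at 1 µM (185 CPM) than at 0 µM (207 CPM), and Slc7a1 had a log2 change of 0.10 ± 0.11 (adjusted p = 0.481).

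Among the transcription factors and regulators, Atf4 rose at every concentration. Its levels were 349.7, 204 and 245 CPM at 0 µM, 469.5, 304 and 319 CPM at 0.1 µM, 403, 309 and 328 CPM at 0.3 µM and 606, 406 and 398 CPM at 1 µM. Within each project all treated libraries were above the 0 µM ones, and the changes were 0.45 ± 0.12 (adjusted p = 0.00751), 0.40 ± 0.12 (adjusted p = 0.0106) and 0.82 ± 0.12 (adjusted p = 1.16e-07). Without 0 µM replicate 2 the Atf4 calls at 0.1 and 0.3 µM ended (adjusted p = 0.0799 and 0.0955), and without 0.3 µM replicate 3 that at 0.3 µM did (0.0719). Chac1, which degrades glutathione, had 12.8, 15.5 and 13.03 CPM at 1 µM against 4.25, 4.78 and 4.49 CPM at 0 µM. The groups stood well apart, and the change was 1.61 ± 0.30 (adjusted p = 2.15e-05). Atf3, a stress-induced repressor, had 7.29, 5.34 and 7.33 CPM at 1 µM against 4.66, 2.59 and 2.09 CPM at 0 µM, a log2 change of 1.18 ± 0.38 (adjusted p = 0.0115). Ppp1r15a, the GADD34 subunit that returns eIF2 to its unphosphorylated state, had 22.4, 34.96 and 24.2 CPM against 21.9, 13.998 and 13.2 CPM, a log2 change of 0.76 ± 0.17 (adjusted p = 0.000375). The Atf3 groups did not overlap, and for Ppp1r15a the GRC321 pair was nearly equal and the gap lay in GRC327.

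Other regulators were lower or did not pass. Atf5, a related factor, had 11.4, 14.1 and 14.8 CPM at 1 µM against 29.4, 30.8 and 41.5 CPM at 0 µM, without overlap, and fell by 1.36 on the log2 scale at 0.3 µM and 1.34 at 1 µM (adjusted p = 0.00022 and 7.85e-05). Trib3, a pseudokinase that restrains ATF4 signalling, had log2 changes of −1.23 at 0.3 µM (adjusted p = 0.00574) and −0.77 at 1 µM (adjusted p = 0.0432). Cebpb, a C/EBP factor, was called at 0.3 µM with a log2 change of −1.11 (adjusted p = 0.0164) and had −0.13 at 1 µM (adjusted p = 0.771). Its call ended without 0.3 µM replicate 2, 0.3 µM replicate 3 or 0 µM replicate 3 (adjusted p up to 0.234). Ddit3, which encodes CHOP, was not called: it had 9.68, 12.2 and 14.7 CPM at 1 µM against 8.06, 8.62 and 12.3 CPM at 0 µM, overlapping groups, and a log2 change of 0.33 ± 0.21 (adjusted p = 0.216). Ddit3 overlaps the methionyl-tRNA synthetase gene Mars1 on the other strand, and the strandedness of the counts is not given in the sources used here. Eif4ebp1, a brake on cap-dependent translation, had a log2 change of −0.22 ± 0.26 at 1 µM (adjusted p = 0.545), and the lipoprotein receptor Vldlr had −0.33 ± 0.13 (adjusted p = 0.0442). The 1 µM call of Trib3 ended in 10 of 17 alternatives, including whenever any 1 of the compared libraries was left out. That of Vldlr ended in 11 of 17.

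The C/EBP-ATF response element, to which ATF4 binds with a C/EBP partner, was searched as TGATGNAA on both strands of the RefSeq GRCr8 promoters, 250 bases before to 50 after each start. It was found in Chac1, Nupr1, Slc7a1 and Trib3 of the 19 amino acid genes matched and in Herpud1 of the 12 chaperone genes matched, against 3.98% of all 33469 promoters. Of the amino acid genes with a match, Chac1 rose at 1 µM, Trib3 fell and Slc7a1 was not called. Herpud1 rose at 1 µM, and its promoter is shown further below with the chaperone genes. The sequences here show this element, in capitals, in the amino acid genes on which it was found, on the gene's strand and from 5′ to 3′. The Chac1 promoter is given whole because Chac1 had the largest rise in the branch, at chr3:126795881-126796180 (plus strand), and the others as the element with 15 bases on each side, Trib3 at chr3:161275532-161275569 (minus strand), Slc7a1 at chr12:11664443-11664480 (plus strand) and Nupr1 at chr1:190645934-190645971 (minus strand). TTGCATCA and TTACATCA are the element read on the other strand.
Chac1: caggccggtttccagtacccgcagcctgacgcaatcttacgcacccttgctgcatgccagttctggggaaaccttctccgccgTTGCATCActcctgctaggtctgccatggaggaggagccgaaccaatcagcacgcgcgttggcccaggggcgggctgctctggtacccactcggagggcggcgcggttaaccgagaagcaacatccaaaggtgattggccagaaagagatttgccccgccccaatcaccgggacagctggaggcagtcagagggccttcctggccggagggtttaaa
Trib3: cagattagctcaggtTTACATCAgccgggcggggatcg
Slc7a1: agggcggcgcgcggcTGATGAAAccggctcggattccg
Nupr1: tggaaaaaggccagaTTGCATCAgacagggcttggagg
The match is a description of the letters and not of binding.

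**Figure D2:**
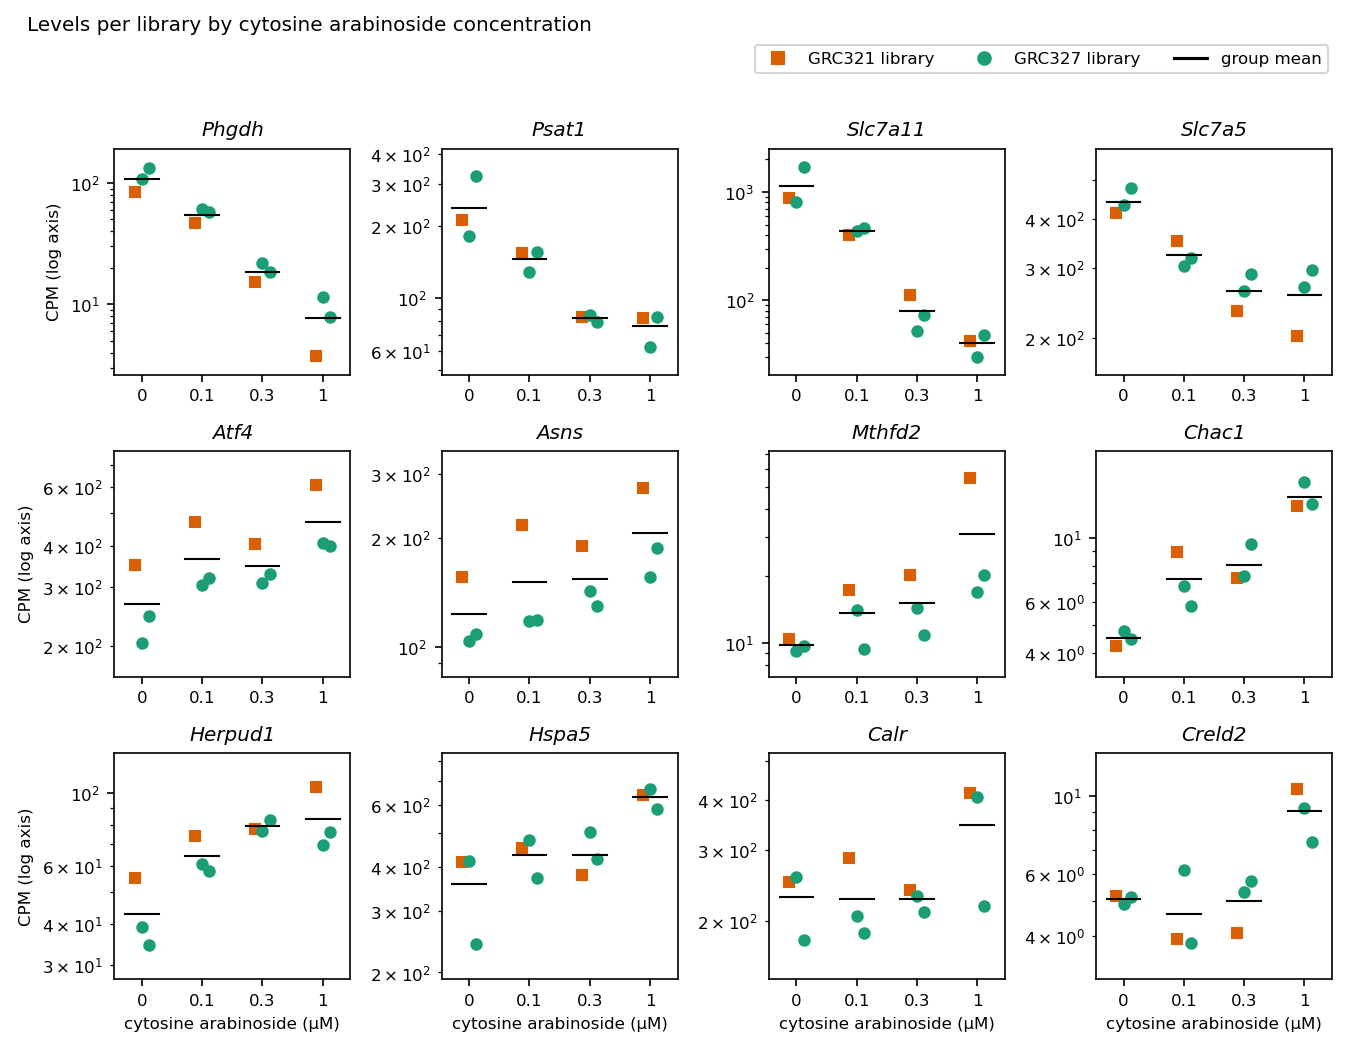
Levels of 12 genes in CPM (log axis) by cytosine arabinoside concentration, with squares for GRC321 libraries, circles for GRC327 libraries and a line at each group mean. Phgdh and Slc7a11 step down at each concentration, Asns, Mthfd2, Chac1, Hspa5 and Creld2 have their highest means at 1 µM, and Herpud1 is already higher at 0.1 µM.

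Calls in the chaperone branch were mostly at 1 µM and upward. At 0.1 and at 0.3 µM cytosine arabinoside 1 of its 16 genes rose and none fell, while at 1 µM 7 rose and 1 fell, against 9.13%, 17.6% and 36% of all genes called at these concentrations. The gene called at both lower concentrations was Herpud1. Besides it 1 more gene reached an unadjusted p under 0.05 at each, Manf at 0.1 µM and Pdia6 at 0.3 µM. Of all genes 20.5% and 27.6% reached it, a larger share than in the branch at both concentrations. The branch median was 0.07, 0.08 and 0.31 on the log2 scale, against 0.01, 0.02 and 0.03 for all genes.

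Herpud1, a membrane protein of the degradation pathway, was called at every concentration. It stood at 55.2, 39.1 and 34.5 CPM at 0 µM, 74.1, 60.8 and 57.99 CPM at 0.1 µM, 77.9, 76.9 and 83.1 CPM at 0.3 µM and 104, 69.5 and 76.2 CPM at 1 µM. All treated libraries were above all 0 µM libraries, and the changes were 0.60 ± 0.12 (adjusted p = 0.000278), 0.92 ± 0.12 (adjusted p = 2.48e-08) and 0.96 ± 0.12 (adjusted p = 2.42e-09). Hspa5, the chaperone BiP that also holds the sensors inactive, had 414, 416 and 242 CPM at 0 µM, 451, 475 and 372 CPM at 0.1 µM, 379, 501 and 419 CPM at 0.3 µM and 641, 666 and 583 CPM at 1 µM. The lower concentrations overlapped 0 µM and 1 µM did not, with log2 changes of 0.28, 0.28 and 0.82 ± 0.19 (adjusted p = 0.000427 at 1 µM).

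The other folding genes called at 1 µM were Hsp90b1, Calr and Pdia4. Hsp90b1, the chaperone GRP94, had 472, 369 and 235 CPM at 1 µM against 318, 247 and 164 CPM at 0 µM, a log2 change of 0.56 ± 0.16 (adjusted p = 0.00441). Calr, the soluble lectin chaperone calreticulin, had 417, 406 and 219 CPM against 251, 258 and 180.0 CPM, a log2 change of 0.59 ± 0.19 (adjusted p = 0.0113). Pdia4, a disulfide isomerase, had 41.4, 44.9 and 23.6 CPM against 28.3, 26.3 and 16.99 CPM, a log2 change of 0.63 ± 0.20 (adjusted p = 0.0112). In each of these 3 genes the last 1 µM library was the lowest of its group and lay inside the 0 µM range, so the groups overlapped. Read in the order printed, each 1 µM library was above the 0 µM library of the same project and title run in all 3 genes.

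Of the secreted factors, sensors and signalling factors, Creld2 and Xbp1 rose at 1 µM and Ern1 fell. Creld2, a secreted factor of endoplasmic reticulum stress, had 10.4, 9.22 and 7.40 CPM at 1 µM against 5.18, 4.91 and 5.14 CPM at 0 µM, without overlap, a log2 change of 0.82 ± 0.26 (adjusted p = 0.0103). Xbp1 had 69.6, 60.7 and 67.4 CPM against 59.4, 45.8 and 48.5 CPM, also without overlap, a log2 change of 0.37 ± 0.12 (adjusted p = 0.0127), in a count that does not separate spliced from unspliced transcripts. Ern1, the sensor that splices Xbp1, had 11.9, 17.1 and 18.4 CPM against 19.4, 21.4 and 23.03 CPM, a log2 change of −0.43 ± 0.15 (adjusted p = 0.0196). Sdf2l1, a partner of BiP, was sparse at 3.90, 1.88 and 1.22 CPM against 0.415, 1.06 and 0.658 CPM, and had a log2 change of 1.47 ± 0.63 (adjusted p = 0.0617). It was the member called along the concentration trend and not at 1 µM, at 0.60 ± 0.21 per step (adjusted p = 0.0181), and the trend called 26 members against 36.2% of all genes, or 17 without 0 µM replicate 3. The trend call of Sdf2l1 ended within GRC327 alone and when replicate 1 of either 0 µM or 1 µM was left out, with slopes down to 0.34 and adjusted p values up to 0.274.

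Of the chaperone branch 8 genes were not called at 1 µM. With their log2 changes these were, besides Sdf2l1, the disulfide isomerase Pdia6 (0.21), the secreted factor Manf (0.24), the membrane lectin Canx (0.07), the co-chaperones Dnajc3 (−0.04) and Dnajb9 (−0.12), the degradation lectin Edem1 (−0.05) and Atf6 itself (−0.13). Their adjusted p values ran from 0.0617 in Sdf2l1 to 0.876 in Dnajc3.

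The endoplasmic reticulum stress response element was searched as CCAAT, 9 bases of any kind and CCACG on both strands of the same promoters. It was found in Calr, Canx, Creld2, Dnajc3, Hsp90b1, Hspa5 and Xbp1, 7 of the 12 chaperone genes matched, in none of the 19 amino acid genes matched, and in 0.0657% of all promoters. Another form, ATTGG, 1 base of any kind and CCACG, was found in Herpud1 and in 0.0508% of all promoters, and the unfolded protein response element TGACGTGG was found in no member and in 0.595% of all promoters. Of the 7 genes with the first element, Calr, Creld2, Hsp90b1, Hspa5 and Xbp1 rose at 1 µM cytosine arabinoside, and Canx and Dnajc3 were not called. Of the matched chaperone genes without it, Pdia4 and Herpud1 rose, and Sdf2l1, Dnajb9 and Edem1 were not called. Among all genes tested 16.6% rose. The branch was chosen by its tie to ATF6 and XBP1, and a match describes the letters and not binding. The part of the element in the changes was not tested. The promoters of Hspa5 at chr3:38452766-38453065 (plus strand) and Herpud1 at chr19:10614658-10614957 (minus strand) are shown whole, since these genes carry the 2 forms of the element and had the smallest p values in the branch, with the elements in capitals. In Herpud1 the first run of capitals is the C/EBP-ATF element on the other strand and the next is the form with ATTGG. The others are shown as the element with 15 bases on each side, so that called and uncalled genes can be compared: Hsp90b1, which holds the element at 2 places, at chr7:23012436-23012484 (minus strand) and chr7:23012332-23012380 (minus strand), Calr at chr19:40213120-40213168 (plus strand), Creld2 at chr7:121789224-121789272 (plus strand), Xbp1 at chr14:84604543-84604591 (plus strand), Canx at chr10:35158054-35158102 (minus strand) and Dnajc3 at chr15:102432519-102432567 (plus strand). Capitals that begin with CGTGG are the element read on the other strand.
Hspa5: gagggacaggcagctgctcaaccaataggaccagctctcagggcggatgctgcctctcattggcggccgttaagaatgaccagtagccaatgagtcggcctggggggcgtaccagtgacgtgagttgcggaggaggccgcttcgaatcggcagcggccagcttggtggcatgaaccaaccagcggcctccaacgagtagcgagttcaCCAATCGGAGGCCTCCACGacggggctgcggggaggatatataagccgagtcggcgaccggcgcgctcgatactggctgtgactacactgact
Herpud1: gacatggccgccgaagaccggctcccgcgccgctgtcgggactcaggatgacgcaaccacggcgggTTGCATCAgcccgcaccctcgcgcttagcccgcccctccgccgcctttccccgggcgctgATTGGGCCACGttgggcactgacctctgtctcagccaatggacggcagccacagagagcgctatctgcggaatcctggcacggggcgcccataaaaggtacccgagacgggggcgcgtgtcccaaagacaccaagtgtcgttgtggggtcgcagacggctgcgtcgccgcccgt
Hsp90b1, far from the start: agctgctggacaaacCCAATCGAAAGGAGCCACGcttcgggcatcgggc
Hsp90b1, near the start: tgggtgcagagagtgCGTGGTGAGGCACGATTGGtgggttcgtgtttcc
Calr: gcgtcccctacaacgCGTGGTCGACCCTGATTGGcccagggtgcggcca
Creld2: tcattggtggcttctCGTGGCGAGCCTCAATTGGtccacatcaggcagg
Xbp1: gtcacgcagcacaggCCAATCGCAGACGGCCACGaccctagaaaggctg
Canx: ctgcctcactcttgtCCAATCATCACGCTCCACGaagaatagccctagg
Dnajc3: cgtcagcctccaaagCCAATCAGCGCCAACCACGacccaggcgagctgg

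The steps between neighbouring concentrations were tested as well, with the log2 change of each called gene in brackets. At 0.3 against 0.1 µM Phgdh (−1.58), Slc7a11 (−2.46) and Psat1 (−0.83) fell, against 2.31% of all genes called. At 1 against 0.3 µM 10 members were called, against 14.3% of all genes: Phgdh (−1.25) and Slc7a11 (−0.98) fell further, and 5 amino acid and 3 chaperone genes rose. The risers were Cebpb (0.97), Mthfd2 (0.91), Ppp1r15a (0.88), Atf4 (0.42), Asns (0.41), Creld2 (0.84), Calr (0.60) and Hspa5 (0.54). Of this second count, 4 members were called without the 0.3 µM or the 1 µM GRC321 library (replicate 1 in both), 2 within GRC327 alone, 6 without 1 µM replicate 2, 4 with a fit per compound and 3 without project terms.

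Cell type markers moved with these changes in the same libraries. The summed level of 22 astrocyte markers ran from 5117 to 8152 CPM at 0 µM, 3431 to 3791 CPM at 0.1 µM, 1408 to 1788 CPM at 0.3 µM and 349 to 446 CPM at 1 µM, with 12, 18 and 20 of the 22 lower, and none was at 0 in any of these groups. Oligodendrocyte lineage markers summed to 1535 to 2086 CPM at 0 µM and 80.9 to 111 CPM at 1 µM, with 17 of 18 lower at each concentration and Mobp at 0 at 0.3 µM, and cell cycle genes summed to 451 to 492 CPM and 95.8 to 142 CPM. Pan-neuronal markers ranged from 12400 to 16109 CPM at 0 µM, 14867.5 to 18554 CPM at 0.1 µM, 14161 to 20716 CPM at 0.3 µM and 11698 to 16705 CPM at 1 µM. Within each project their sums at 0.1 and 0.3 µM were above those at 0 µM. Activity-regulated genes summed to 448 to 488 CPM at 0 µM and 1780.0 to 2837 CPM at 1 µM, with 16 of 17 higher. The part of these shifts in the changes of Phgdh, Psat1, Slc7a11 and the other members was not tested.

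**Figure D3:**
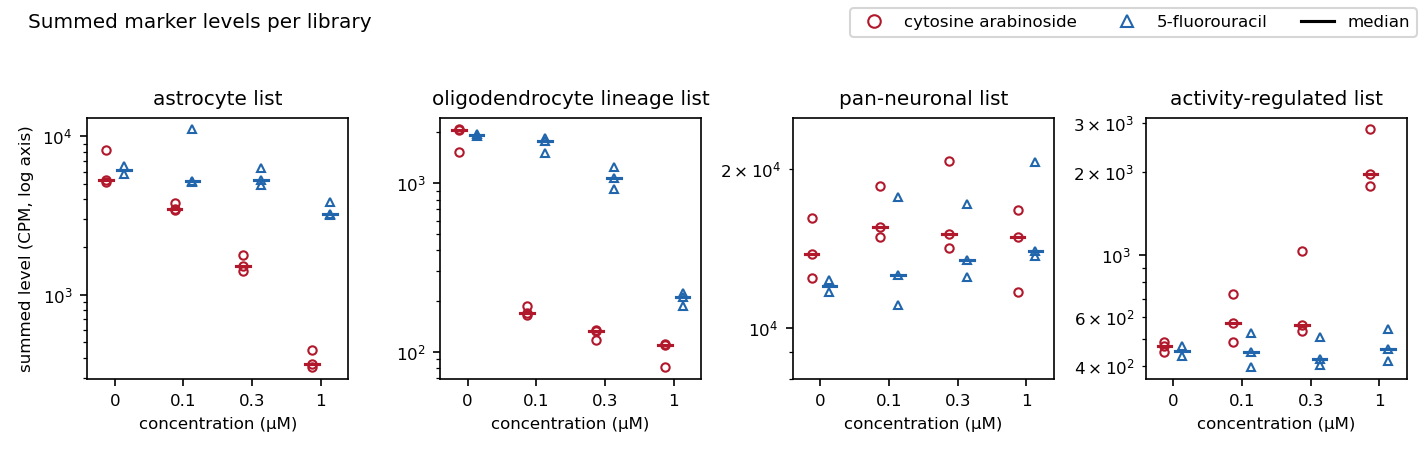
Summed level per library (CPM, log axis) of astrocyte, oligodendrocyte lineage, pan-neuronal and activity-regulated genes by concentration, with circles for cytosine arabinoside, triangles for 5-fluorouracil and lines at the medians. The astrocyte sum falls at each cytosine arabinoside concentration to 349 to 446 CPM at 1 µM and is 3201 to 3854 CPM at 1 µM 5-fluorouracil, while the activity-regulated sum rises at 1 µM cytosine arabinoside.

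Within GRC327 alone, 5, 10 and 19 members were called at 0.1, 0.3 and 1 µM cytosine arabinoside, and 896, 2115 and 4256 genes in all. Of these members, 5, 10 and 18 had the same sign in the single GRC321 pair of libraries, with Slc7a3 the exception at 1 µM. Among all genes called in GRC327 the same sign was found in 94.9%, 92.6% and 89.8%. At 1 µM Phgdh, Slc7a11, Psat1, Slc7a5, Slc3a2, Atf5, Mthfd2, Chac1, Ppp1r15a, Herpud1 and Hspa5 were called in all 17 alternatives to the test. Atf4 and Asns were called at 1 µM in all but 1 alternative, the fit without a project term (adjusted p = 0.0730 and 0.142). Without 0 µM replicate 3, which among the cytosine arabinoside libraries had the highest astrocyte sum and the highest Slc7a11 and Psat1 levels, 16 members were called, and Atf3, Calr, Ern1, Hsp90b1, Pdia4, Shmt2, Slc7a3, Trib3 and Vldlr were not. Each of those 9 calls, and those of Creld2 and Xbp1, ended with at least 1 library left out.

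Further genes of the pathways also split, with log2 changes given in brackets. Of 29 tested genes on a list of other ATF4 pathway genes 14 rose and 6 fell at 1 µM, with a median of 0.30, against 16.6% and 19.4% of all genes. The glutamine carrier Slc1a5 (−6.26 ± 0.56) and the alanine aminotransferase Gpt2 (−0.99 ± 0.12) fell, and the aspartate aminotransferase Got1 (0.86 ± 0.12) and Mars1 (0.57 ± 0.11) rose. Among 13 genes of the eIF2 kinases, eIF2 and its exchange factor eIF2B, the eIF2B subunits Eif2b5 (0.52) and Eif2b4 (0.58) and the eIF2 subunit Eif2s2 (0.37) rose, and the kinase PKR, Eif2ak2, fell (−0.53). Of 41 other endoplasmic reticulum folding and degradation genes 6 rose and 6 fell, with a median of 0.17, and the 12 called are a smaller share than the 36% of all genes. The chaperone Hyou1 (0.88 ± 0.14) and the BiP co-chaperone Dnajb11 (0.59) rose, and the membrane protein wolframin, Wfs1 (−1.56 ± 0.18), and the protease that cleaves ATF6, Mbtps1 (−0.49), fell. Of 15 cytosolic and mitochondrial heat shock genes the protease Clpp rose (0.95), the co-chaperone Bag3 (−1.42) and the small heat shock protein Hspb1 (−5.34) fell, and the mitochondrial chaperone Hspa9 had 0.26 (adjusted p = 0.0511).

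At 1 µM 5-fluorouracil Slc7a11, Phgdh and Psat1 fell, which were also the 3 members with the largest falls at 1 µM cytosine arabinoside. Among all genes tested 0.691% rose and 3.34% fell. Its 0 µM libraries were both from GRC327, while 1 of 3 libraries at 1 µM was from GRC321. Slc7a11 had 722, 329 and 301 CPM at 1 µM against 826 and 1269.7 CPM at 0 µM, without overlap and with the GRC321 library nearest to 0 µM. Phgdh had 57.7, 80.6 and 61.8 CPM against 134 and 116 CPM, and Psat1 had 141, 132 and 126 CPM against 219 and 237 CPM. Neither pair of groups overlapped. The log2 changes were −1.49 ± 0.32 for Slc7a11 (adjusted p = 0.00150), −0.70 ± 0.18 for Phgdh (adjusted p = 0.0108) and −0.69 ± 0.21 for Psat1 (adjusted p = 0.0445). Leaving out 0 µM replicate 2 ended the calls of Slc7a11 (adjusted p = 0.104) and Psat1 (0.262), leaving out 0 µM replicate 1 or 1 µM replicate 3 ended those of Phgdh and Psat1 (Phgdh 0.148 and 0.212, Psat1 0.111 and 0.266), and leaving out 1 µM replicate 2 ended that of Psat1 (0.209). The count was thus 1 without any 1 of those first 3 libraries. The trend called the same 3 genes, against 5.16% of all genes, and 1 without 0 µM replicate 1, 0 µM replicate 2 or 1 µM replicate 3.

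The remaining members were not called with 5-fluorouracil. Atf4 had 399, 221 and 249.7 CPM at 1 µM against 287 and 219.7 CPM at 0 µM, a log2 change of −0.03 ± 0.14 (adjusted p = 0.957), and the GRC327 values overlapped. Ddit3 had a log2 change of 0.04 ± 0.24, Asns 0.16 ± 0.13, Chac1 0.46 ± 0.35, Hspa5 0.38 ± 0.22 and Xbp1 −0.05 ± 0.14, with adjusted p values of 0.415 or more. Atf3 had 3.77 CPM in GRC321 and 7.24 and 5.15 CPM in GRC327 at 1 µM, against 2.73 and 1.88 CPM at 0 µM, both GRC327. It had the highest log2 change of the members, 1.23 ± 0.45 (unadjusted p = 0.00926, adjusted p = 0.131). The 0 µM libraries of all compounds held 3.35 to 6.56 CPM of Atf3 in GRC321 and 0.98 to 2.73 CPM in GRC327. The GRC321 library at 1 µM thus lay inside the 0 µM range of its project, and the gap was in GRC327. Herpud1 had 64.7, 57.8 and 56.05 CPM against 39.4 and 45.01 CPM, a log2 change of 0.40 ± 0.14 (adjusted p = 0.0883). Its GRC327 libraries at 1 µM were above those at 0 µM. Its GRC321 library lay inside the 52.9 to 66.9 CPM of the GRC321 libraries at 0 µM of other compounds. The amino acid branch had a median of −0.13 and the chaperone branch 0.11, against 0.01 for all genes. At 0.1 and 0.3 µM no member had an unadjusted p under 0.05, DESeq2 and limma called none, and 0.00652% and 0.0456% of all genes were called. Astrocyte markers summed to 3201 to 3854 CPM at 1 µM against 5822 to 6478 CPM at 0 µM, with 5 of 22 lower and none at 0, and oligodendrocyte lineage markers to 188 to 224 CPM against 1898 to 1959.8 CPM, with 17 of 18 lower. The part of these shifts in the values of the members was not tested.

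Cytosine arabinoside, cytosine joined to the sugar arabinose, and 5-fluorouracil, a fluorinated uracil base, were given at the same 3 concentrations, and the difference between their changes was tested at each. At 0.1, 0.3 and 1 µM 3, 7 and 8 members differed, against 3.84%, 5.89% and 12.9% of all genes. Astrocyte markers summed to 3431 to 3791, 1408 to 1788 and 349 to 446 CPM with cytosine arabinoside. With 5-fluorouracil they summed to 5174 to 11074, 4913 to 6303 and 3201 to 3854 CPM. Slc7a11, Phgdh and Psat1 changed by −1.39, −0.97 and −0.71 at 0.1 µM cytosine arabinoside, and by −1.49, −0.70 and −0.69 at 1 µM 5-fluorouracil. The part of the marker levels in the differences was not tested. For Phgdh the log2 change with cytosine arabinoside minus that with 5-fluorouracil was −1.06 ± 0.24 (adjusted p = 0.00292), −2.50 ± 0.25 (adjusted p = 1.37e-10) and −3.10 ± 0.26 (adjusted p = 1.41e-13). Slc7a11 had differences of −1.46 ± 0.42, −3.55 ± 0.44 and −3.34 ± 0.44 (adjusted p = 0.0320, 4.46e-08 and 7.49e-08), and Psat1 of −0.96, −1.56 and −0.97 (0.0327, 7.04e-05 and 0.0130). At 1 µM Mthfd2 (1.53 ± 0.30, adjusted p = 0.000159), Atf4 (0.85 ± 0.18, 0.000459) and Asns (0.58 ± 0.17, 0.0128) were higher with cytosine arabinoside. Slc7a5 and Herpud1 also differed at 0.3 and 1 µM, with −0.72 and −0.52 for Slc7a5 and 0.81 and 0.56 for Herpud1. Atf5 (−1.46) and Slc3a2 (−0.76) differed at 0.3 µM, calls that ended in 8 and 12 of 21 alternatives (adjusted p up to 0.601 and 0.51). That of Atf5 ended without cytosine arabinoside 0.3 µM replicate 1 or 3, its 0 µM replicate 3, 5-fluorouracil 0.3 µM replicate 3 or its 0 µM replicate 1. That of Slc3a2 ended without any 1 of the compared libraries other than cytosine arabinoside 0.3 µM replicate 1 and its 0 µM replicate 2. At 1 µM the differences ended in 3 of 21 alternatives for Asns, among them that without 5-fluorouracil 0 µM replicate 1, in 5 for Psat1 and in 8 each for Slc7a5 and Herpud1. In all 6 pairs of compound and concentration were compared, deltamethrin and cypermethrin included. Adjusted over these pairs in place of all genes, the quasi-likelihood p values of edgeR for Phgdh were 8.54e-05, 5.37e-13 and 1.55e-15.

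Most members of the chaperone branch did not differ past the test between these compounds at 1 µM. Hspa5, Hsp90b1, Calr and Creld2, called with cytosine arabinoside and not with 5-fluorouracil, had differences of 0.44 (95% interval −0.13 to 1.01), 0.20 (−0.29 to 0.69), 0.54 (−0.03 to 1.11) and 0.68 (−0.12 to 1.48). Chac1 had 1.15 (0.22 to 2.07, adjusted p = 0.0959). Single libraries decided some counts. At 0.1 µM the count was 0 without 5-fluorouracil 0.1 µM replicate 3 and 1 without cytosine arabinoside 0.1 µM replicate 2 or 0 µM replicate 3. At 1 µM it was 5 without cytosine arabinoside 0 µM replicate 3, where Herpud1, Psat1 and Slc7a5 were not called.

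**Figure D4:**
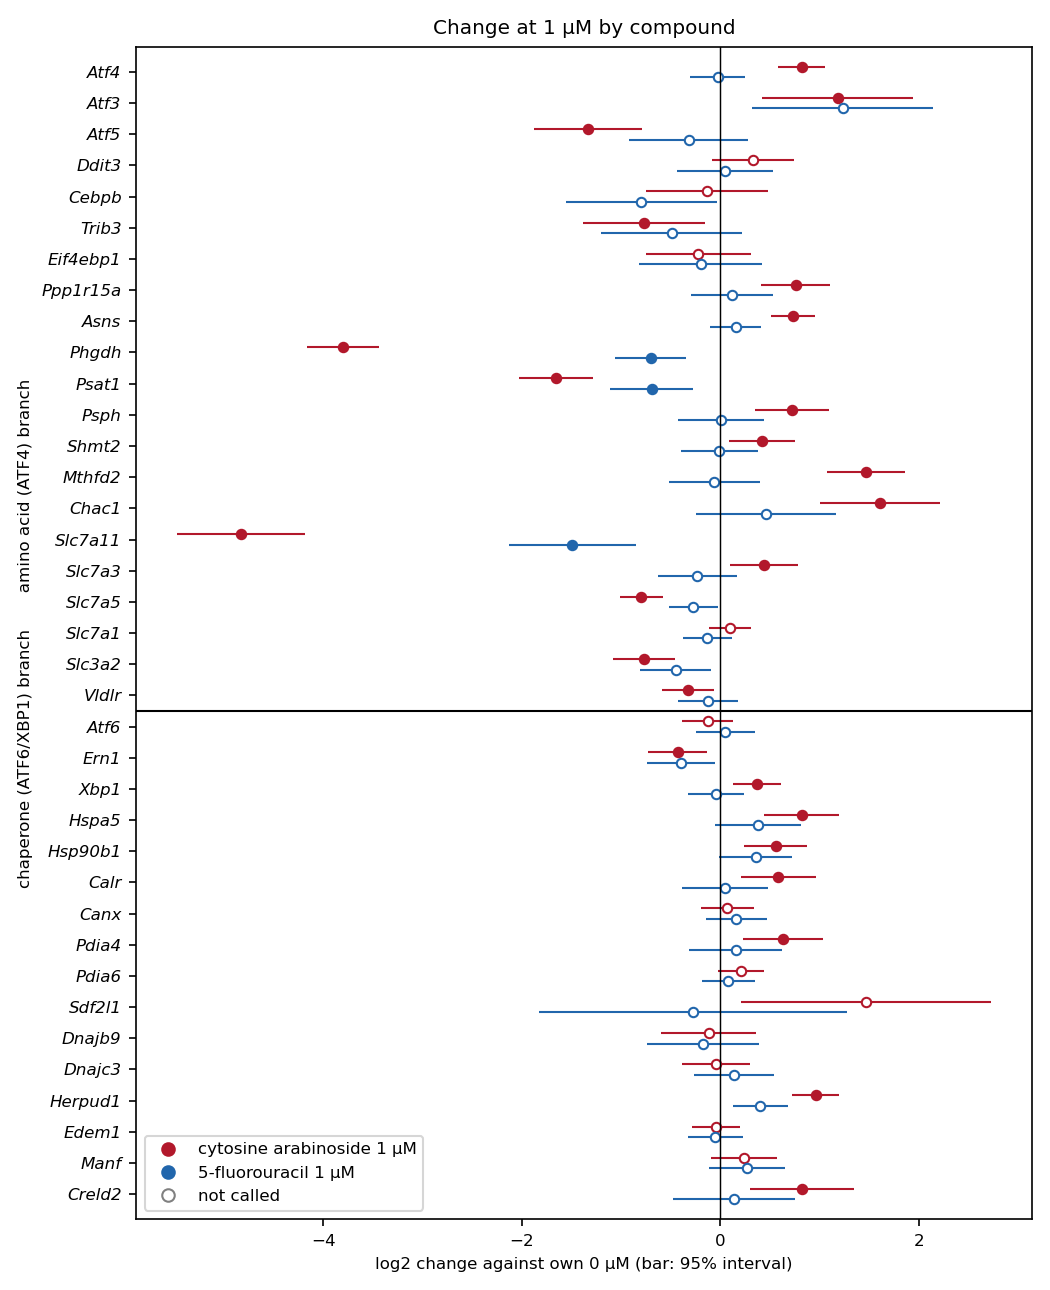
Log2 change at 1 µM against the compound's own 0 µM for the 37 tested genes, with 95% intervals, red for cytosine arabinoside and blue for 5-fluorouracil, and open points for genes not called. The points part most in Slc7a11 and Phgdh, which fell with both compounds and further with cytosine arabinoside. Mthfd2, Atf4 and Asns also differed past the test, with 5-fluorouracil points near 0.

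With domoic acid no member was called at 0.1, 0.3 or 1 µM by edgeR, DESeq2 or limma, and 0%, 1.51% (1.21% higher) and 0% of all genes were called by edgeR. At 0.3 µM 8 members had an unadjusted p under 0.05, against 22.5% of all genes, and at 0.1 and 1 µM none had. Chac1 had 3.15, 15.4 and 5.57 CPM at 0.3 µM against 5.77, 3.68 and 3.93 CPM at 0 µM, a log2 change of 0.82 ± 0.32 (adjusted p = 0.120), and Calr had 214, 476 and 272 CPM against 279, 229 and 195 CPM, a log2 change of 0.44 ± 0.19 (0.152). In both genes the first GRC327 library stood high while the GRC321 library was below its own 0 µM library. That first GRC327 library held 22.6 M counts. Of all 71 libraries it had the highest TMM factor (1.155) and the lowest pan-neuronal sum (10477 CPM). The part of these traits in the values was not tested. Within GRC327 alone 7 members were called at 0.3 µM, namely Atf3, Calr, Chac1, Dnajb9, Eif4ebp1, Hsp90b1 and Psph, 6 higher and 1 lower. Over all libraries of both projects the count was 7 without 0.3 µM replicate 1, 2 without 0 µM replicate 1 (Atf3 and Chac1), 2 without 0.3 µM replicate 3 (Chac1 and Psph) and 0 without the high library, 0.3 µM replicate 2. The 1.51% of all genes belongs to the fit over all libraries. These alternative counts have no share of all genes beside them and do not single out the members. Per library, the amino acid branch had a median log2 ratio to the 0 µM libraries of the same project of 0.32 in the high library and −0.03 in each of the other libraries at 0.3 µM. At 1 µM, the highest concentration, Atf4 had a log2 change of −0.07 ± 0.12, Ddit3 0.25 ± 0.22, Asns 0.18 ± 0.11, Chac1 0.03 ± 0.33, Hspa5 0.01 ± 0.19, Xbp1 −0.01 ± 0.12 and Herpud1 0.05 ± 0.12.

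With haloperidol no member was called by any of these 3 tools, and 0% of all genes at 0.3 and 1 µM and 0.0261% at 3 µM were called by edgeR. At 3 µM the amino acid branch had a median of −0.25 and the chaperone branch −0.06, against −0.00 for all genes. An unadjusted p under 0.05 was reached by 0, 1 and 7 members at 0.3, 1 and 3 µM, the 7 all lower. Of all genes 2.07%, 3.46% and 5.14% reached it. Herpud1 had 54.3, 29.6 and 33.98 CPM at 3 µM against 65.4, 43.7 and 37.8 CPM at 0 µM, a log2 change of −0.32 ± 0.12 (adjusted p = 0.745). Within each project its 3 µM libraries were below the 0 µM ones. Atf4 had a log2 change of −0.25 ± 0.12, Asns −0.25 ± 0.11, Ddit3 −0.48 ± 0.22, Ppp1r15a −0.44 ± 0.18 and Eif4ebp1 −0.61 ± 0.27, with adjusted p values of 0.861 or more. Chac1 had a log2 change of −0.48 ± 0.32, Hspa5 −0.09 ± 0.19 and Xbp1 −0.06 ± 0.12. Over single libraries the median ratio of the amino acid branch at 3 µM was −0.24 in GRC321 and −0.20 and −0.07 in GRC327.

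With deltamethrin no gene was called (0% at each concentration, and no member by DESeq2 or limma), while at 10 µM the estimates of the amino acid branch lay on one side of 0. All 21 tested genes of the branch had an estimate below 0, from −0.99 to −0.06, with a median of −0.28, against −0.08 in the chaperone branch and −0.00 over all genes. The genes share the same libraries, so their signs are not independent. Members with an unadjusted p under 0.05 numbered 0, 2, 3 and 7 at 0.3, 1, 3 and 10 µM, against 2.28%, 5.17%, 1.91% and 4.95% of all genes. Eif4ebp1 had 7.63, 3.46 and 5.19 CPM at 10 µM against 24.2, 6.88 and 6.51 CPM at 0 µM, a log2 change of −0.99 ± 0.28 (adjusted p = 0.959). Atf4 had 207, 223 and 221 CPM against 408, 258 and 229.8 CPM, a log2 change of −0.41 ± 0.12 (unadjusted p = 0.00117, adjusted p = 0.959). In both genes the gap was widest in GRC321, and every 10 µM library was below its own project's 0 µM libraries. The GRC321 library at 10 µM had a mitochondrial share of 6.63% of counts, 13626 CPM of pan-neuronal and 7128 CPM of astrocyte markers, against 4.41%, 16133 CPM and 5226 CPM in the GRC321 library at 0 µM. The part of these differences in the estimates was not tested. Slc7a3 had 97.6, 159.7 and 133 CPM against 206, 205 and 144 CPM, a log2 change of −0.50 ± 0.17, and the groups overlapped. Ddit3 had a log2 change of −0.23 ± 0.22, Asns −0.29 ± 0.11, Chac1 −0.37 ± 0.33, Hspa5 −0.13 ± 0.19, Xbp1 −0.34 ± 0.12 and Herpud1 −0.09 ± 0.12. Per library the median ratio of the branch at 10 µM was −0.38 in GRC321, with 20 of 21 genes below 0, and −0.14 and −0.18 in GRC327, with 18 below 0 in each. Within GRC327 alone the fitted median was −0.16, with 18 of 21 below 0, and against all 16 libraries at 0 µM it was −0.27, with 19 below 0.

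With cypermethrin no gene was called either (0% at each concentration), and no member by DESeq2 or limma. An unadjusted p under 0.05 was reached by 2, 4 and 2 members at 1, 3 and 10 µM, and by 5.04%, 6.08% and 7.2% of all genes. At 10 µM these were Canx (log2 change −0.40 ± 0.15, adjusted p = 0.597) and Pdia6 (−0.28 ± 0.13, 0.670). Canx had 899, 883 and 919.5 CPM at 10 µM against 1691 and 861 CPM at 0 µM, and the GRC321 library at 0 µM stood far above the other 4 libraries. Without 0 µM replicate 2, the GRC327 library, Canx was called at 3 and 10 µM, and Canx and Pdia6 along the trend. The amino acid branch had a median of −0.16 and the chaperone branch −0.10. Per library the median ratio of the amino acid branch at 10 µM was −0.02 in GRC321, with 11 of 21 genes below 0. In GRC327 it was −0.41 and −0.06, with 19 and 14 below 0. Atf4 had a log2 change of 0.06 ± 0.13, Ddit3 0.04 ± 0.24, Asns −0.17 ± 0.12, Chac1 −0.22 ± 0.36, Hspa5 −0.05 ± 0.21, Xbp1 0.09 ± 0.14 and Herpud1 −0.26 ± 0.13.

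**Figure D5:**
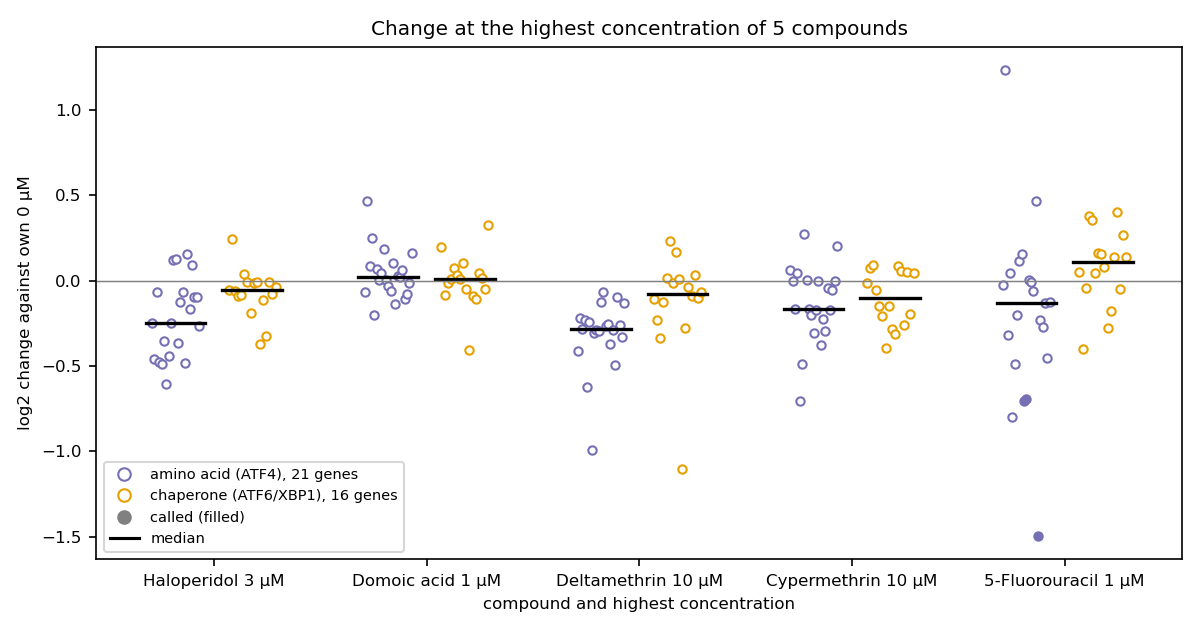
Log2 change of each tested gene against the compound's own 0 µM at the highest concentration of 5 compounds, with purple points for the amino acid branch, yellow points for the chaperone branch, filled points for called genes and black lines at the medians. All purple points of deltamethrin lie below 0, and the filled points are Slc7a11, Phgdh and Psat1 at 1 µM 5-fluorouracil.

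Deltamethrin and cypermethrin share a pyrethroid frame and differ in the halogen on the vinyl group, bromine in deltamethrin and chlorine in cypermethrin. No member differed between them at 1, 3 or 10 µM (0% of all genes at each), with unadjusted p under 0.05 in 4, 2 and 3 members and 7.52%, 3.85% and 7.27% of all genes, and none called by DESeq2 or limma. Without cypermethrin 0 µM replicate 2 the count at 10 µM was 1, which was Canx. The widest gap at 10 µM was in Eif4ebp1, with a log2 difference, deltamethrin minus cypermethrin, of −1.27 ± 0.41 (95% interval −2.09 to −0.44, adjusted p = 0.547), with −0.90 at 1 µM and −1.02 at 3 µM. Atf4 had −0.47 at 10 µM (−0.83 to −0.11, adjusted p = 0.566), Asns −0.12 (−0.46 to 0.21) and Hspa5 −0.07 (−0.64 to 0.50). These intervals admit differences in either direction for Asns and Hspa5, and a missed threshold does not show that the compounds act alike.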

How the data were processed

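Levels and tests rest on 1 table of expected counts per gene for 71 libraries, deposited by the authors, with a matching deposited table of CPM, counts relative to the library total. Per the labels' protocols, RNA was taken with RNeasy Plus, and polyA libraries were made with PrepX. Partek and STAR are named per the submitters' processing notes. The genome build, annotation and strandedness are not given in the sources used here. Of all values in the deposited table of expected counts, 20.6% were not whole (tolerance 1e-06), which is how reads shared between genes can appear, and most values of Mthfd2, Psat1, Hsp90b1, Phgdh, Slc7a3 and Slc7a1 were not whole.

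Counts were rounded and tested in R 4.3.3 by edgeR 4.0.16, after TMM scaling (factors 0.875 to 1.155), filterByExpr at a minimum count of 10, and 1 quasi-likelihood model over all libraries with a coefficient per group and a project term per compound (31 coefficients, 40 residual degrees of freedom). Adjusted p values are Benjamini-Hochberg values over the 15343 genes of a comparison, called at 0.05. Groups of 1 or 2 libraries borrow the spread of the others. Trends are linear over the rank of the concentrations and leave out deltamethrin at 0.3 µM. Alternatives were DESeq2 1.42.0, limma 3.58.1 on log2(deposited CPM + 0.5), other scalings, filters, project terms and 0 µM references, and each library left out. Steps between cytosine arabinoside concentrations, and a replicate block, were added after seeing the data. Title numbers of GRC327 fall into 2 consecutive runs per compound that the labels do not explain. The difference between runs was correlated over genes between any 2 concentrations of a compound. The r values were 0.125 to 0.41 for cytosine arabinoside, 0.106 to 0.295 for 5-fluorouracil, 0.123 to 0.431 for haloperidol and 0.0944 to 0.343 for cypermethrin. The replicate block held run terms for every compound. The scripts were tested on simulated counts with known changes. Drawing and sequence matching used Python 3.11.15, pandas 2.3.3 and matplotlib 3.10.9.

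The members, branches and gene lists were chosen with earlier results of these data known. All members could be named, with values per library for up to 6 called genes of a branch with the smallest p, and for others where their values were seen to bear on a description. Atf4, Ddit3, Asns, Chac1, Hspa5, Xbp1 and Herpud1 are given at the highest concentration of every compound, and other lists give up to 4 genes with the smallest p. Libraries held total counts of 5.2 M to 43.1 M, and no libraries held identical values. The common biological coefficient of variation, the spread among libraries beyond counting noise, was 15.6%. Promoters of 31 members were matched by symbol in a RefSeq table of GRCr8, and Atf3, Eif4ebp1, Slc7a3, Atf6, Ern1, Pdia6 and Manf were not matched.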

Additional observations from a re-analysis of the deposited data

How the results depend on the processing

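No called result changed sign in an alternative. Without project terms, the members called fell to 2, 7 and 14 at 0.1, 0.3 and 1 µM cytosine arabinoside, 1 at 1 µM 5-fluorouracil, 15 and 1 along the trends of these compounds, 0, 3 and 2 in their differences at 0.1, 0.3 and 1 µM, and 3 in the step of 1 against 0.3 µM. With a fit per compound they were 4 at 0.1 µM cytosine arabinoside, 1 at 1 µM 5-fluorouracil, 1 along its trend, 0 in the difference at 0.1 µM and 4 in the upper step. With all 0 µM libraries as reference they were 3 for domoic acid at 0.3 µM, 11 at 0.1 µM cytosine arabinoside and 9 at 1 µM 5-fluorouracil. Within GRC327 alone they were 7 for domoic acid at 0.3 µM and 2 in the upper step. The causes were not tested. Shares of all genes called are not given for these alternatives or for those with a library left out. Such counts therefore do not show a change particular to the members. In 150 bases before the start TGATGNAA was found in 3 members, against 5 in the longer window (2.01% and 3.98% of all promoters), and the first endoplasmic reticulum stress element in 5, without Calr and Canx, against 7 (0.0418% and 0.0657%).

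Leaving out 1 library at a time, the count ranged from 0 to 7 for domoic acid at 0.3 µM, 0 to 1 for cypermethrin at 3 and at 10 µM and for the pyrethroid difference at 10 µM, 0 to 2 along the cypermethrin trend, 4 to 6 at 0.1 µM and 16 to 22 at 1 µM cytosine arabinoside, 1 to 3 at 1 µM 5-fluorouracil, 17 to 26 and 1 to 4 along the cytosine arabinoside and 5-fluorouracil trends, 0 to 4 and 5 to 10 in the cytosine arabinoside minus 5-fluorouracil differences at 0.1 and 1 µM, and 4 to 12 in the upper step. DESeq2, limma and other scalings kept these counts within 1.5 times. With the replicate block by title run 8, 13 and 25 members were called at 0.1, 0.3 and 1 µM cytosine arabinoside, 3 at 1 µM 5-fluorouracil, 3, 8 and 9 in their differences and 4 and 13 in the steps. Besides Trib3 at 0.1 µM and Chac1 at 0.3 µM, the block added Trib3 and Atf5 to the differences at 0.3 and 1 µM, Atf5 to the lower step and Pdia4, Shmt2 and Slc7a1 to the upper step, and it changed no other call. The median correlation between runs was 0.0275 for domoic acid (r = −0.0234 to 0.103) and 0.0392 for deltamethrin (0.0141 to 0.143). For cypermethrin it was 0.208 (0.0944 to 0.343), near the 0.209 of cytosine arabinoside. The block called no member with domoic acid, deltamethrin or cypermethrin. Groups held 3 libraries or fewer, so small changes may have gone uncalled.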
